A study of Mus musculus with 2 samples.

Results

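The respiratory chain and ATP synthase genes of the mouse nucleus were examined for open chromatin at their promoters in spleen. They were taken as the protein-coding nuclear genes of the GENCODE annotation whose symbol begins with Nduf, Sdh followed by A to D, Uqcr, Cox followed by 4 to 8, or Atp5. The rule gave 98 gene entries with 97 symbols, out of 21938 nuclear protein-coding genes. DNase-seq, which sequences the sites where the nuclease DNase I cuts accessible DNA, had been applied to whole spleen from B6CASTF1/J females, 36 days of age, whose parents were of the C57BL/6 and CAST strains. The samples formed 1 group of 2 libraries, called biological replicates 1 and 2. The labels describe differently numbered females but attach the same donor entry to both libraries, so the spread between them may in part be technical. No group was set against another, so no test was made and the values describe these libraries.

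Replicate 1 had 42454 peaks and replicate 2 had 60683, with median widths of 189 and 191 bases. The libraries had 133725 and 246700 footprints, which are short stretches inside open chromatin that are protected from cutting. The read depth behind these calls was unknown. The promoters of 6 of 6 B cell marker genes had a peak in both libraries, those of 2 and 3 of 3 T cell genes, and those of 1 and 3 of 3 erythroid genes. Of 6 muscle markers, 0 and 2 had one, and the 2, Ckm and Tnnt3, stood in replicate 2 at 74.3% and 80.0% of its peaks ordered from the strongest. Some T cell and erythroid peaks of replicate 2 were weak too, with Cd3e at 77.5%, Bcl11b at 57.5%, Gata1 at 53.8% and Klf1 at 41.0%. Lck stood there at 28.7% and Epor at 20.6%. In replicate 1 Lck stood at 52.5%, Bcl11b at 65.3% and Epor at 30.3%. The peaks of Bcl11b and Epor did not cover the start site. None of 3 liver and none of 2 brown fat markers had one. In whole tissue, a weaker peak in every cell and a peak in fewer cells cannot be told apart. Reads of a hybrid were placed on the reference genome of 1 parent, and the effect of this on single promoters was not tested.

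The respiratory chain of the inner mitochondrial membrane passes electrons from NADH and succinate to oxygen through complexes I to IV. The proton gradient that complexes I, III and IV build drives ATP synthase, also called complex V. Most subunits are encoded in the nucleus, while a core set is encoded by mitochondrial DNA and lies outside this list. Several nuclear subunits of complex IV, cytochrome c oxidase, exist as a widely used isoform and an isoform restricted to tissues such as heart, skeletal muscle, lung or testis. The nuclear respiratory factor NRF1, the ETS factor GABP, YY1 and the oestrogen-related receptors are known regulators of these genes, the last together with the coactivator PGC-1.

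The promoter sequences below are shown because they carry consensus matches found in footprints of both libraries, each widened by 5 bases on either side, or because they set a closed isoform promoter beside an open one. They were read from the GRCm38 (mm10) genome on the strand of the gene, 5′ to 3′. In the first set capitals mark the consensus match. The motifs searched, on both strands, were GCGCANGCG for NRF1, CCGGAAG for ETS factors, AAGATGGC for YY1 and AAGGTCA for oestrogen-related receptors (ERR). The first 5 lines give the best-ranked member of each complex with an NRF1, ETS or YY1 match in footprints of both libraries. The others were chosen after their values were seen.
Ndufa6, NRF1, chr15:82354241-82354270, minus strand: ccgCGCGTGCGCacgctgaaggggcggggc
Sdhb, ETS, chr4:140961257-140961286, plus strand: tgtacattggctcggagaaaCCGGAAGcgg
Uqcrc1, NRF1, chr9:108936660-108936689, plus strand: cgcctcagactccgctctGCGCATGCGcag
Cox6a1, NRF1, chr5:115349042-115349100, minus strand: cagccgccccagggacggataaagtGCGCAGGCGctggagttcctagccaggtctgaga
Atp5c1, NRF1, chr2:10080423-10080452, minus strand: cccGCGCACGCGcactgagtcccgtctgcc
Atp5o, YY1, chr16:91931532-91931561, minus strand: gaaAAGATGGCcgcgcctgcagcgtccgga
Uqcrq, ERR, chr11:53430909-53430971, minus strand: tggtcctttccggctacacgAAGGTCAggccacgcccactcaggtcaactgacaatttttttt
Atp5k, ERR, chr5:108434350-108434379, minus strand: gcgAAGGTCAcggacaaaatggtgcccccg
The centre of the match lay 9 bases before the start site in Ndufa6, 90 bases before it in Cox6a1 and 1 base before it in Atp5c1. It lay 49 bases after the start site in Uqcrc1, 77 after it in Sdhb, 133 after it in Atp5o and 75 after it in Atp5k, and 121 before it in Uqcrq. Without the widening, the ERR match of Uqcrq ran past the footprint edge in both libraries and that of Atp5k in replicate 1, while the other matches shown lay inside.

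In the second set capitals mark bases inside a footprint of both libraries, over the 150 bases before and the first 20 bases of the most upstream GENCODE transcript. Cox6a2 and Cox7a1 are the isoforms of heart and skeletal muscle, and Cox6a1 and Cox7a2 are the widely used ones.
Cox6a2, chr7:128206368-128206537, minus strand: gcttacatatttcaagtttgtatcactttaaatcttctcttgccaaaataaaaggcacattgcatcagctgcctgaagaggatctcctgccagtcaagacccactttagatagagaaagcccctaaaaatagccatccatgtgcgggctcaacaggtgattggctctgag
Cox6a1, chr5:115348962-115349131, minus strand: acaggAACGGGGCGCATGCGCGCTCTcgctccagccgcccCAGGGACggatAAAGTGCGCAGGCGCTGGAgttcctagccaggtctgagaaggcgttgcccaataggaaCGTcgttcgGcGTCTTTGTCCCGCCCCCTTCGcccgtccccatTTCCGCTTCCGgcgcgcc
Cox7a1, chr7:30183994-30184163, plus strand: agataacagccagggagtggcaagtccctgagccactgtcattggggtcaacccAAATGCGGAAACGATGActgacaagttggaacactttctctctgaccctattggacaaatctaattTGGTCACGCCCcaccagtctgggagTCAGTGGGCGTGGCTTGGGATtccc
Cox7a2, chr9:79759859-79760028, minus strand: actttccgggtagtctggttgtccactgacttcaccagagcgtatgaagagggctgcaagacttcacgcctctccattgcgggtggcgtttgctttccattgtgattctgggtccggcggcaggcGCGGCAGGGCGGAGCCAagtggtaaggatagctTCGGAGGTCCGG
The Cox6a2 stretch held 1 CpG dinucleotide, was 43.5% G or C and had 0 bases in footprints of both libraries. The Cox6a1 stretch held 21, was 67.1% G or C and had 83 such bases. The Cox7a1 stretch held 4 CpG dinucleotides and 49 footprint bases, and the Cox7a2 stretch held 12 and 29. The closed muscle promoter was thus the one of the 4 with the fewest CpG dinucleotides and no shared footprint.

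Nearly all respiratory chain and ATP synthase genes had an open promoter in spleen. A promoter peak, defined as a peak within 1 kb of an annotated start site, was present at 90 of 98 members in replicate 1 (91.8%, 95% Wilson interval 84.7 to 95.8) and at 91 of 98 in replicate 2 (92.9%, 86.0 to 96.5). The mean was 92.3% ± 0.72 (SD, n = 2). Among all nuclear protein-coding genes the share was 53.4% in replicate 1 and 56.9% in replicate 2. Among genes with a CpG-rich promoter, those at or above the median of all genes in observed over expected CpG content, it was 84.0% and 86.8%. The intervals cover counting error alone.

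CpG content divided the members. All 83 members with a CpG-rich promoter had a peak in both libraries. Of the 15 members with a CpG-poor promoter, 7 had one in replicate 1 and 8 in replicate 2, against 22.8% and 27.0% of all genes with a CpG-poor promoter. The CpG-poor members with a peak in both libraries were Ndufb10, Ndufa3, Cox7b, Cox7a1, Cox6b2, Atp5f1 and Atp5j2. CpG content was measured at the most upstream start site, while a peak counted at any start site. The Atp5j2 peak covered another of its start sites than the one measured. The Atp5f1 peak did not cover its start site, had its midpoint 749 and 739 bases from it and was nearer to another gene, with the start site of Wdr77 within 1 kb.

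By complex, the gaps lay in complexes II, IV and V. All 44 genes of complex I, the NADH dehydrogenase, had an open promoter in both libraries, 36 of them subunits and 8 assembly factors. All 8 genes of complex III, which hands electrons to cytochrome c, had one too. Of the 8 genes of complex II, succinate dehydrogenase, 7 and 8 had one. In complex IV it was 14 of 20 in each library, and in complex V 17 of 18 in each. All 17 members classed as core subunits had one in both.

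The 6 members of complex IV without a promoter peak were all tissue-restricted isoforms, a class whose 8 members all had CpG-poor promoters. Cox4i2, an isoform of lung, Cox6a2 and Cox8b, isoforms of heart and skeletal muscle, Cox7b2 and Cox8c, isoforms of testis, and Ndufa4l2, a paralogue of Ndufa4 known to be induced in low oxygen, lacked a promoter peak in both libraries. The longer, less stringent peak list held none at them either. The deposited cut rate track lists bases with a false discovery rate under 0.05, and within 1 kb of these start sites it listed 0 bases in both libraries, except for 2 bases at Cox7b2 in replicate 1 with a rate of 0.0434. Of the 8 tissue-restricted isoforms 2 had a promoter peak in each library, 25% with a 95% Wilson interval of 7.15 to 59.1, close to the 22.8% and 27.0% of all genes with a CpG-poor promoter. All 7 widely used partners had one in both, and 6 of these 7 were CpG-rich, so the isoform classes differed in CpG content as well. With a window of 2 kb the isoforms' share was 50% in replicate 1 and 62.5% in replicate 2, against 25.4% and 30.1% of CpG-poor genes. The wider window added Cox6a2 and Ndufa4l2 in both libraries and Cox4i2 in replicate 2.

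Cox7a1, an isoform of heart, skeletal muscle and brown fat, was the stronger of the 2 open ones. Its peak at chr7:30184021-30184220 covered the start site in both libraries, with signals of 4.49 and 6.03, in the deposited units of each library. It ranked 7222 of 42454 in replicate 1 and 6973 of 60683 in replicate 2, in the strongest 17.0% and 11.5% of peaks. Its partner Cox7a2 had signals of 8.35 and 12.9 and stood at 6.02% and 3.55%. Both libraries placed Cox7a1 below Cox7a2.

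Cox6b2, the testis isoform of Cox6b, had signals of 2.13 and 2.60 and stood at 34.4% and 25.01%, against 2.89 and 4.24, or 26.3% and 16.3%, for its partner Cox6b1. Both libraries placed it behind Cox6b1. Marker promoters of testis were themselves mixed, with a promoter peak at Zpbp and Prm1 in both libraries and none at Ddx4 in either. Zpbp stood at 8.99% and 9.36% and Prm1 at 66.9% and 33.1%, but neither peak covered the start site. Cox6b2 was thus not the only testis gene with a promoter peak. Its peak, unlike those of Zpbp and Prm1, covered the start site in both libraries.

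The partners of the closed isoforms covered a wide range. Cox6a1 stood at 1.34% in replicate 1 and 1.32% in replicate 2, with signals of 12.5 and 17.8, the strongest promoter of complex IV. Cox8a stood at 6.19% and 2.66%, Cox4i1 at 10.9% and 8.91%, and Ndufa4 at 13.7% and 10.4%. Cox7b, the partner of the testis isoform Cox7b2, was the weakest of them at 34.1% and 20.1%. It is one of the 3 X-linked members. The nearest peak to Cox6a2 lay 1914 bases from its start site in replicate 1 and 1924 in replicate 2. The nearest peak to Ndufa4l2, of signal 5.82 and 4.54, lay 1887 and 1847 bases away. At Cox7b2 the nearest lay 619916 and 613000 bases away.

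**Figure D1:**
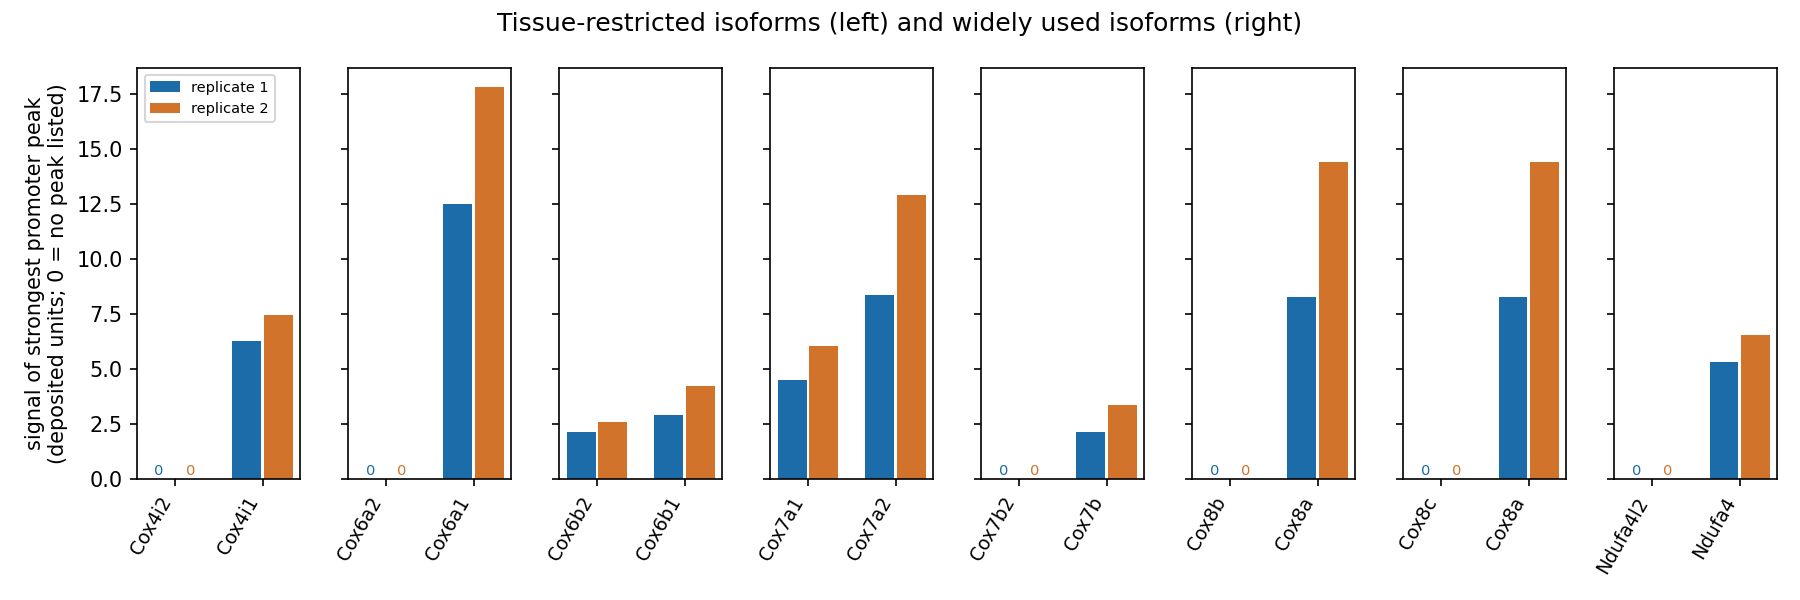
Bars give the signal of the strongest promoter peak, in the deposited units of each library, for each tissue-restricted isoform on the left of a panel and its widely used partner on the right, in replicate 1 (blue) and replicate 2 (orange). A 0 marks no promoter peak: 6 of the 8 tissue-restricted isoforms had none, while each partner had one in both libraries.

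The other 2 entries without a promoter peak in 1 or both libraries were Sdhaf1 and the second of 2 entries named Atp5o, and in both cases an open start site lay further off. Sdhaf1, an assembly factor of complex II, had no peak within 1 kb of its GENCODE start site at 30323895 on chromosome 7 in replicate 1, and in replicate 2 a peak of signal 0.743 at rank 42389. The RefSeq start site of Sdhaf1 lies at 30322375, inside a peak at chr7:30322321-30322540 of signal 9.84 in replicate 1 and one at chr7:30322341-30322540 of signal 17.0 in replicate 2. Those peaks ranked 1593 and 926, in the strongest 3.75% and 1.53%. Atp5o encodes the stalk subunit of ATP synthase also called OSCP. The entry with its start at 91931687 on chromosome 16 had such a peak in both libraries, and the entry with its start at 91926982 had none, its nearest peak being that of the first entry at 4539 and 4559 bases.

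With RefSeq start sites added where the RefSeq promoter table held the symbol, 93.9% of members had a promoter peak in each library, an alternative chosen after seeing the data. This share was not computed over all genes. Start sites were added by symbol, so the second Atp5o entry was counted here through the peak of the first and gained none of its own. The members still without one in this count were the 6 tissue-restricted isoforms named above.

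Peaks of the members were among the stronger ones. Ranks are given as the percent of all peaks of a library that are at least as strong, so that small values are strong peaks. The members' strongest promoter peaks had a median rank of 10.2% in replicate 1 and 7.80% in replicate 2. For all genes with a promoter peak it was 14.5% and 11.5%, and for those with a CpG-rich promoter 11.98% and 9.22%. Of the members' peaks 44 of 90 (48.9%) and 60 of 91 (65.9%) lay in the strongest 10% of their library, against 37.0% and 45.3% for all genes. No member's strongest peak was weaker than 45.03% in replicate 1 or, apart from Sdhaf1 at its GENCODE start site, than 40.6% in replicate 2. The best of the members' peaks had a rank of 0.853% and 0.519%. Beside CpG-rich genes the members thus had fewer weak peaks, while their stronger quartile was not ahead.

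The 17 core subunits had medians of 7.59% and 3.71%, the accessory subunits 11.6% and 8.48%, and the assembly factors 8.81% and 9.14%. By complex the medians were 9.13% and 7.53% in complex I, 8.81% and 6.37% in complex II, 11.7% and 9.32% in complex III, 14.0% and 10.2% in complex IV and 10.4% and 7.47% in complex V. Complex IV had the weakest median in both libraries. The quartiles of the complexes overlapped.

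**Figure D2:**
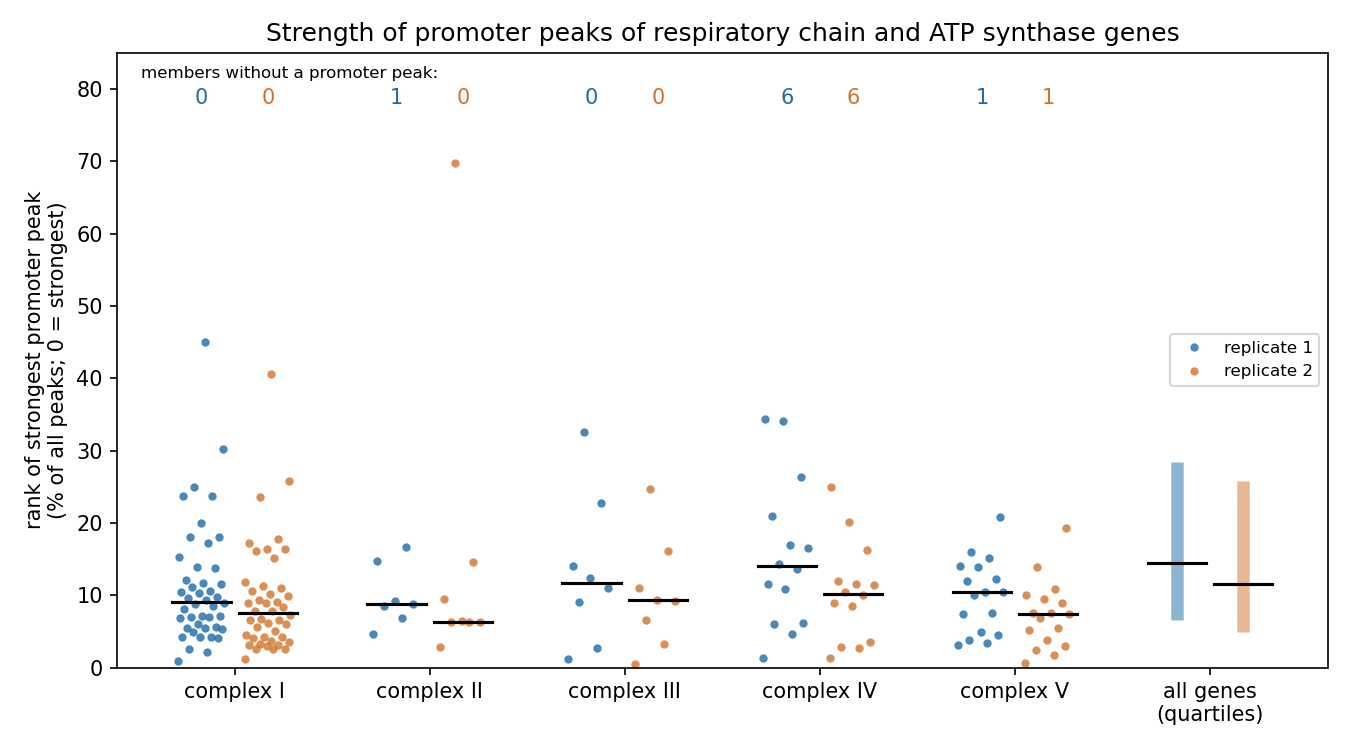
Each point is the strongest promoter peak of a member, by complex, with its rank as a percent of all peaks of the library on the vertical axis (0 is the strongest), in replicate 1 (blue) and replicate 2 (orange). Black lines are medians, numbers at the top count members without a promoter peak, and bars on the right span the quartiles of all protein-coding genes with a promoter peak, whose medians were 14.5% and 11.5%.

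In complex I the strongest promoters were those of Ndufv3, Ndufaf8 and Ndufa7. Ndufv3, an accessory subunit of the NADH-binding arm, had a peak at chr17:31519961-31520180 in both libraries, with signals of 13.5 and 18.4 and ranks of 0.853% and 1.16%. Ndufaf8, an assembly factor, stood at 2.12% and 2.54%, and the accessory subunit Ndufa7 at 2.56% and 2.95%. The peaks of Ndufaf8 and Ndufa7 lay nearer to the start sites of Tepsin and of the ribosomal protein gene Rps28, and they cannot be assigned to the member alone.

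The weakest promoters of complex I were those of Ndufc2 and Ndufaf1. Ndufc2, an accessory subunit, had a peak at chr7:97399961-97400160 covering its start site in both libraries, with signals of 1.57 and 1.45 and ranks of 45.03% and 40.6%. Ndufaf1, an assembly factor, had signals of 3.20 and 2.51 and stood at 23.8% and 25.8%. Both genes were CpG-rich, so a CpG-rich start site did not go with a strong peak in each case.

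In complex II the membrane anchor Sdhc stood at 4.62% and 6.46%, the iron-sulphur subunit Sdhb at 8.46% and 2.83%, and the flavoprotein Sdha, which oxidises succinate, at 6.85% and 6.26%. The other membrane anchor, Sdhd, stood at 9.26% and 6.28%. The 4 catalytic and anchor subunits were thus close together, and the weakest of the complex II genes with a peak in both libraries were the assembly factors Sdhaf4, at 14.8% and 14.7%, and Sdhaf2, at 16.6% and 9.55%. At its GENCODE start site Sdhaf1, described above, was weaker still.

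In complex III the accessory subunit Uqcrq had a peak of 400 bases at chr11:53430881-53431280 in replicate 1 and of 380 bases at chr11:53430901-53431280 in replicate 2. Its signals were 12.6 and 21.5 and its ranks 1.23% and 0.519%, the best mean rank of all members. The Uqcrq peak did not cover the start site in either library, with midpoints at -253 and -263 bases from it. Uqcrfs1, the Rieske iron-sulphur protein, followed at 2.66% and 3.25%, and Uqcrc1 at 9.05% and 6.54%. Uqcrc2 at 22.8% and 16.1% and Uqcrb at 32.5% and 24.6% were the weakest. Subunits of the same complex thus spanned most of the range that the members covered.

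In complex IV Cox6a1 was followed by the structural subunit Cox5b, at 4.60% and 2.84%, and by Cox8a. The weakest open promoters were those of Cox6b2 and Cox7b. In complex V Atp5g1, one of the 3 genes for the membrane ring subunit c, had signals of 10.3 and 20.6 and stood at 3.13% and 0.638%. The Atp5g1 peak did not cover the start site in either library, with midpoints at -230 and -220 bases from it. The other ring genes were lower, with Atp5g2 at 12.01% and 6.82% and Atp5g3 at 12.3% and 8.93%. Atp5d and Atp5c1, the delta and gamma subunits of the catalytic F1 head, stood at 3.38% and 1.75%, and at 4.46% and 2.44%. Atp5b, the catalytic beta subunit, stood at 3.87% and 3.81%, against 16.0% and 13.96% for Atp5a1, the alpha subunit that forms the same head. Atp5l, subunit g, was the weakest at 20.9% and 19.3%.

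The 3 X-linked members, Ndufa1, Ndufb11 and Cox7b, had a median rank of 30.2% in replicate 1 and 20.1% in replicate 2, against 9.82% and 7.52% for the members on autosomes. CpG-rich genes in general stood at 22.8% and 15.3% on the X chromosome and at 11.7% and 9.01% on autosomes. X-linked CpG-rich genes as a whole thus also ranked behind autosomal ones.

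The order of members was alike in both libraries. Of the 90 members with a peak in both, the strongest peaks of 88 overlapped, and Spearman's rho of their ranks was 0.90, a description over genes that share each library's depth. Replicate 2, with more peaks, gave the smaller percent for 72 members, by a median of 2.42 percentage points. Of the 423 footprints in the members' strongest peaks in replicate 1, 84.9% had a footprint of replicate 2 over at least 50% of the shorter one. The reverse share was 75.7% of 408.

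The members' strongest peaks mostly sat on the start site. Their median width was 200 bases in each library, against 220 and 200 for all genes with a promoter peak, so width did not set them apart. The midpoint lay within 100 bases of the gene's own start site for 83.3% and 82.4% of members, against 67.9% and 67.0% of all genes with a promoter peak. The midpoint fell in the first 100 bases from the start site onward in 29 members in replicate 1 (32.2%) and 27 in replicate 2 (29.7%), against 15.5% and 15.4% of other genes. In the 100 bases before the start site members and other genes were close, at 51.1% and 52.7% of members, against 52.2% and 51.4%. The peak covered the start site of 77 of 90 members (85.6%) and 76 of 91 (83.5%), against 72.2% and 70.4% of all genes. The members had a mean of 1.38 and 1.42 promoter peaks, against 1.65 and 1.77 for all genes, but they also had fewer annotated start sites, a median of 1 against 2. Among genes with 1 start site the means were 1.30 and 1.42 for members, against 1.54 and 1.62 for all genes.

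**Figure D3:**
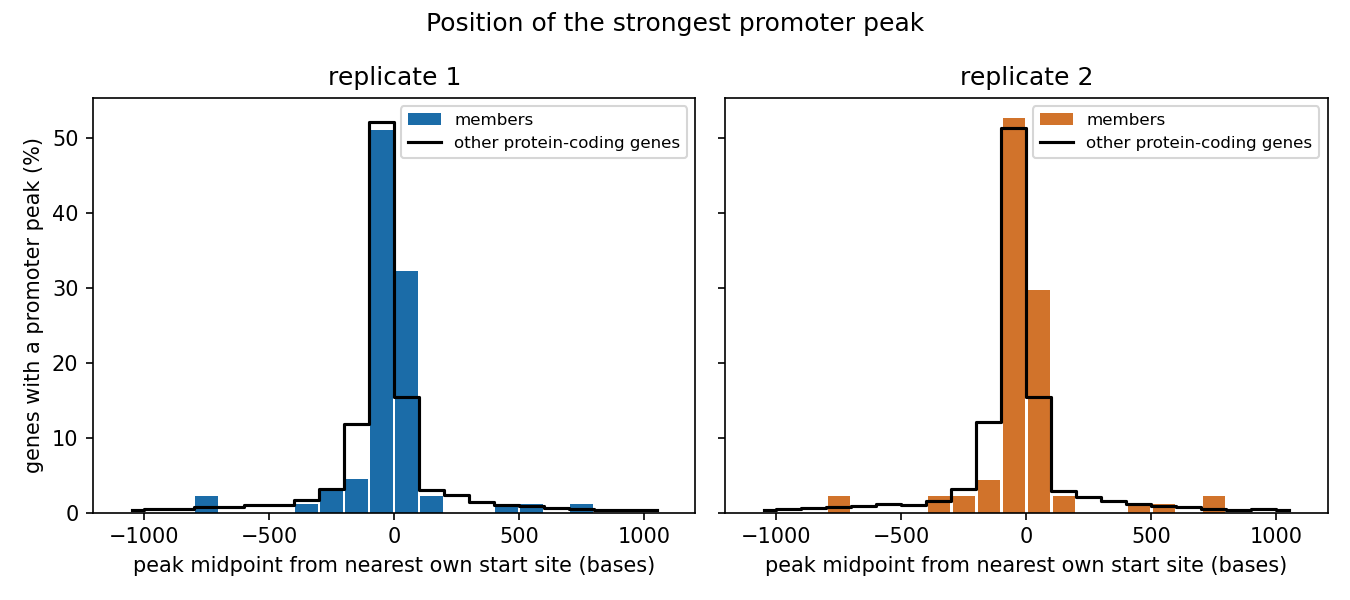
Bars give the percent of members with a promoter peak, and the black line that of the other protein-coding genes, by the distance of the midpoint of the strongest promoter peak from the gene's nearest own start site, in bins of 100 bases and with negative values upstream. Members exceed the line in the bin just downstream of 0, at 32.2% and 29.7% against 15.5% and 15.4%.

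The widest peaks were those of Uqcrq and Atp5g1, each 400 bases in replicate 1 and 380 in replicate 2, and of Ndufb5, at 360 and 340. Single wider calls stood beside narrow ones in the other library. Ndufa4 had 440 and 180 bases, and the iron-sulphur subunit Ndufs8 400 and 80. The narrowest peak was that of Cox7c in replicate 1, at 120 bases against 200 in replicate 2, and that of Ndufs8 in replicate 2. Narrow in both libraries were Cox7a2, at 140 bases in each, and Sdhc, Cox6c, Ndufs4 and Atp5mpl, at 160 in each.

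Many members share their promoter with a neighbour. A gene on the opposite strand started within 1 kb upstream of 24 of 98 members (24.5%), against 8.16% of all genes and 14.2% of CpG-rich ones, and the median distance was 86 bases, against 137 and 132.5. Ndufs1, an iron-sulphur subunit of complex I, starts 3 bases from the translation elongation factor gene Eef1b2, and Ndufb11 starts 3 bases from Rbm10. Ndufa7 starts 10 bases from Rps28 and Sdha 29 bases from Ccdc127. In complex IV, 1 member, Cox4i1, had such a partner, Emc8 at 101 bases. Members with a partner had median ranks of 8.88% and 6.27%, and members without one 10.5% and 8.48%.

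The strongest peak had the start site of another protein-coding gene within 1 kb for 32 members in each library (35.6% and 35.2%), against 19.9% and 19.1% of all genes. For 14 members in each library that other start site was the nearer one. Sdhd shared its peak with Timm8b and Ndufs6 with Mrpl36, which encode a mitochondrial import protein and a mitochondrial ribosomal protein. Ndufb5 shared its peak with another such gene, Mrpl47. Atp5j, the coupling factor of ATP synthase, shared its peak with Gabpa, which encodes the DNA-binding subunit of GABP. That peak, at chr16:84834801-84835120 in replicate 1, had its midpoint 543 bases from the nearest GENCODE start site of Atp5j but lay over 1 of its RefSeq start sites, at 84834976. Another RefSeq start site of Atp5j, at 84835625, had a weaker peak of its own. Its signals were 1.51 and 1.49, at ranks of 46.6% and 39.9%, with 0 footprints. With peaks counted only where the member's own start site was the nearest, 83.2% ± 0.72 of members (SD, n = 2) had a promoter peak, an alternative chosen after seeing the data. This share was not computed over all genes. For the strongest peak alone, the own start site was the nearest for 76 of 90 and 77 of 91 members. Over all genes with a promoter peak it was so for 10544 of 11716 and 11298 of 12489.

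Footprints were about as many as at other promoters of like strength. The strongest peak of a member held 4.70 ± 1.88 footprints in replicate 1 (SD over 90 members) and 4.52 ± 1.51 in replicate 2 (SD over 91 members). Other promoter peaks, weighted to the members' signal ranks in bins of 10%, held 4.57 and 4.77. Footprints took up 34.0% and 40.1% of a member's peak on average, against 32.8% and 38.3% at those peaks. The differences from the other peaks had opposite signs in the 2 libraries for the number, and members were slightly higher in both for the share.

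The members with the most footprints were Atp5g1, with 9 in each library, Uqcrq with 9 and 8, Atp5g2 with 10 and 5, Cox7a2l, which takes part in joining complexes into supercomplexes, with 7 and 8, and Ndufa4 with 11 and 3. Ndufa10 had 6 and 8. The counts of Cox7a2l came from different peaks, at chr17:83514521-83514720 in replicate 1 and chr17:83514261-83514440 in replicate 2. The high counts thus went with the widest peaks at Atp5g1, Uqcrq and, in replicate 1, Ndufa4.

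**Figure D4:**
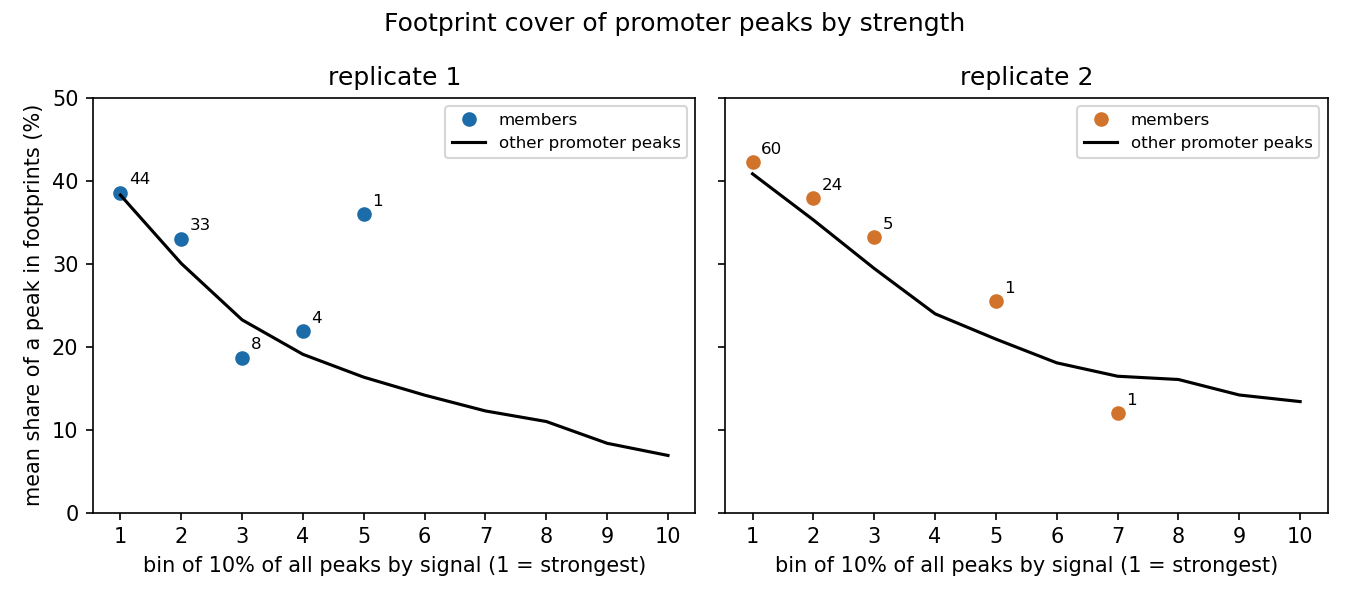
Points give the mean percent of a member's strongest promoter peak that lies in footprints, and the line the same for other promoter peaks, by bins of 10% of all peaks of the library ranked by signal (1 is the strongest); numbers beside points count members. Members follow the line, at 38.6% against 38.3% in the strongest bin of replicate 1 and 42.3% against 40.9% in that of replicate 2.

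The NRF1 consensus was present in a footprint of the strongest peak of 27 of 90 members in replicate 1 (30%, 95% Wilson interval 21.5 to 40.1) and of 25 of 91 in replicate 2 (27.5%, 19.4 to 37.4). At other genes with peaks of like strength, weighted by the same bins, the share was 18.1% in each library. Those genes were matched on peak strength but not on CpG content, and no test was made. Both libraries were searched in the same genome sequence, so their shares are not independent of each other. Footprints were widened by 5 bases on each side for this search. The match was in footprints of both libraries at 25 members. The best-ranked of them were Cox6a1, Ndufa6, Atp5c1, Ndufa13, Ndufa8, Ndufb4, Ndufs5, Atp5h and Sdha. The peak counted for Ndufa13 did not cover its start site, had its midpoint at -752 and -772 bases from it and was nearer to another gene, with the start site of Yjefn3 within 1 kb, so that match cannot be assigned to Ndufa13. At Ndufs6 and Sdhd, too, the start site of another gene was the nearer one. The match is a run of letters, and which protein sat there was not measured.

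The ETS consensus, which GABP recognises, was found at 16 members in each library (17.8% and 17.6%), against 13.6% and 15.6% at peaks of like strength, inside the intervals of 11.2 to 26.9 and 11.1 to 26.7. The ETS match lay in footprints of both libraries at 14 members, among them Sdhb, Sdhd, Cox6a1, Cox8a, Ndufs1, Atp5a1 and Atp5j. At 3 of the 14, Atp5j, Ndufs3 and Sdhd, the start site of another gene was the nearer one. SP/KLF boxes, GGGCGG, were fewer at members, at 46.7% (36.7 to 56.9) and 46.2% (36.3 to 56.3), against 63.4% and 65.5%. NFY, CCAAT, was at 16.7% and 23.1%, against 22.0% and 24.7%, and CRE, TGACGTCA, at 5.56% and 5.49%, against 4.43% and 4.56%. TATAAA, the box bound by TBP, was in footprints of 1 and 2 members (1.11% and 2.20%), against 1.44% and 1.71%. These were Ndufa7 in both libraries, whose peak lay nearer to the start site of Rps28, and Sdhaf1 in replicate 2. The Sdhaf1 match lay in its weak peak, with the midpoint 777 bases from the GENCODE start site. Any of the 7 sequences other than TATAAA was in a footprint of 80% and 84.6% of members, against 82.6% and 84.4%, so members as a whole were close to other genes.

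Over the 300 bases from 250 before to 50 after the most upstream start site, without regard to peaks, 21.4% of members held the NRF1 consensus, against 8.64% of all genes and 15.3% of CpG-rich ones. The ETS consensus was in 18.4%, against 11.2% and 18.5%, and SP/KLF in 44.9%, against 44.9% and 70.7%. YY1 was in 9.18%, against 2.98% and 4.66%, and ERR in 10.2%, against 3.99% and 2.40%. NFY was in 36.7%, against 38.8% and 37.8%, CRE in 5.10%, against 2.50% and 3.81%, and TATAAA in 10.2%, against 12.5% and 6.29%. Beside CpG-rich promoters the members, 15 of them CpG-poor, thus held more NRF1, YY1 and ERR matches, fewer SP/KLF matches and similar shares of ETS and NFY. The TATAAA share lay between those of CpG-rich and of all genes, and the CRE share rested on 5 members.

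**Figure D5:**
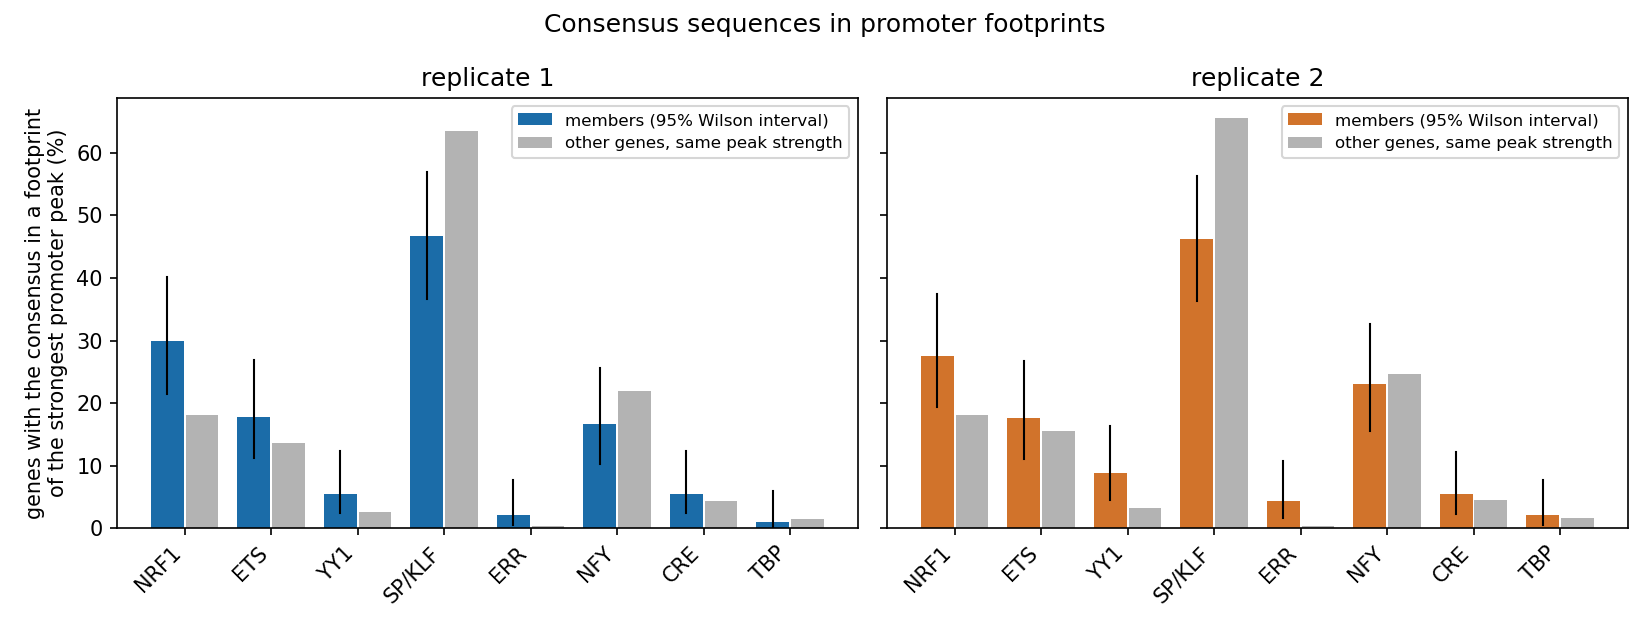
Coloured bars give the percent of members with a promoter peak whose strongest peak holds the consensus in a footprint, with 95% Wilson intervals, and grey bars the percent of other genes weighted to the same bins of peak signal. NRF1 stands above the grey bar, at 30% and 27.5% against 18.1%, and SP/KLF below it, at 46.7% and 46.2% against 63.4% and 65.5%.

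The YY1 consensus was in a footprint of 5 members in replicate 1 (5.56%, 95% Wilson interval 2.40 to 12.4) and of 8 in replicate 2 (8.79%, 4.52 to 16.4), against 2.68% and 3.28% at peaks of like strength. Without the widening it was in a footprint of 2 members in each library, Atp5o and Uqcrh (2.22% and 2.20%), against 1.20% and 1.78%. Uqcrh, Atp5o and Atp5j2 were among the members with a match in a widened footprint in both libraries. The peak counted for Uqcrh did not cover its start site and had its midpoint at -359 bases from it in both libraries. It was nearer to another gene, with the start site of Lrrc41 within 1 kb, so that match cannot be assigned to Uqcrh. In the whole strongest peak the YY1 consensus was found at 18 of 90 members (20%) and 16 of 91 (17.6%), against 5.02% and 4.57% of other genes. In 14 members of each library the match lay over an annotated start codon of some gene, as in the Atp5o sequence above, where AAGATGGC contains the ATG. These were 77.8% and 87.5% of the members with a match, against 42.3% and 40.1% of the other genes with a match. Away from start codons the share was 4.44% and 2.20% of members, against 2.90% and 2.73% of other genes. Most of the members' difference from other genes in this consensus thus lay in matches over the start codon. Members' peaks also reached downstream of the start site more often, as given above, and the part of this in the YY1 count was not tested.

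The ERR consensus was rare in footprints, at 2 members in replicate 1 and 4 in replicate 2 (2.22% and 4.40%), against 0.451% and 0.355% at peaks of like strength. In replicate 2 the 4 included Sdhaf1, through its weak peak with the midpoint 777 bases from the GENCODE start site. Atp5k, subunit e of ATP synthase, and Uqcrq had the ERR consensus in a footprint of both libraries. These matches depended on the widening: without it the count was 0 members in replicate 1 and 2 in replicate 2 (2.20%), against 0.183% and 0.287%, and no member had it in both. In the whole strongest peak it was found at 11 of 90 members (12.2%) and 10 of 91 (10.99%), against 1.29% and 1.27% of other genes. The 9 members with it in both libraries were Atp5a1, Atp5g3, Atp5k, Atp5l, Atp5mpl, Ndufb4, Ndufs6, Sdhd and Uqcrq. At Atp5k the ERR match and an ETS match touched the same footprint, at chr5:108434372-108434384 in replicate 1. Most ERR matches were thus in members' peaks but not in called footprints.

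Genes that serve the same pathway were open as widely. Of 59 related genes, 57 and 58 had a promoter peak (96.6% and 98.3%), against the 53.4% and 56.9% of all genes. These included 29 of 29 further assembly factors, 13 of 13 citric acid cycle genes, 12 and 13 of 13 regulators, and Atpif1, the inhibitor of ATP synthase. Cycs, the cytochrome c of most tissues, stood at 0.928% and 1.18%, with the NRF1 consensus in a footprint in both libraries. Cyct, the cytochrome c of testis, had no promoter peak in either, and Cyc1, the cytochrome of complex III, stood at 21.3% and 18.8%.

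Esrra, which encodes the oestrogen-related receptor alpha, had the strongest promoter of the related genes, at rank 15 of 42454 and 8 of 60683. The complex I assembly factor Tmem126b stood at 0.996% and 0.438%, malate dehydrogenase Mdh2 at 1.41% and 0.180%, and the complex IV assembly factor Cox18 at 1.29% and 0.300%. Among the other regulators, Yy1 stood at 1.71% and 1.20%, Tfb2m and Tfam, which act on mitochondrial transcription, at 1.84% and 1.06%, and at 2.86% and 2.12%. Polg, Polrmt and Twnk, of mitochondrial DNA replication and transcription, stood at 4.65% and 2.64%, at 7.05% and 3.36%, and at 6.56% and 6.97%. Nrf1 stood at 12.2% and 7.90%, Gabpa at 14.1% and 7.49%, and Gabpb1 at 19.03% and 18.8%.

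The 3 coactivators of the PGC-1 family differed. Pprc1 stood at 10.3% and 5.76% and Ppargc1b at 22.7% and 15.1%. Ppargc1a, the coactivator known to be induced in muscle and brown fat, had no promoter peak in replicate 1, and in replicate 2 a peak of signal 0.707 at rank 43957 of 60683.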

How the data were processed

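Per the readme deposited with each library, the authors derived peaks, footprints and the cut rate track from the alignments of that library alone, on mm10. Which aligner and which callers produced them is not given in the sources used here. Each deposited peak has a signal value set by the authors, on a scale that is likewise not given. It was used to rank peaks within a library, and the shorter of the 2 deposited lists per library was the main one. The deposited footprints carry a false discovery rate (q-value) threshold of 0.01, and the deposited cut rate track lists bases with a q-value under 0.05. Read depth is unknown, which limits how firmly an absent peak can be read.

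Start sites came from the basic GENCODE vM21 annotation and sequence from GRCm38.p6. Promoters reached 1 kb from a start site in both directions, and CpG content was taken over 500 bases to either side of the most upstream one. The RefSeq promoter table for GRCm38.p6 matched 78 of the 97 symbols. Other promoter peaks were weighted to the members' signal ranks in bins of 10%. Intervals are 95% Wilson intervals and cover counting error only. Computation used Python 3.11.15 and numpy 2.4.6, and the search functions were tested on simulated data.

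The members, gene lists and consensus sequences were chosen with earlier results of these data known. Named are members without a promoter peak, isoform pairs, in each complex the 3 members of best and the 2 of worst mean rank, the widest and narrowest 3 peaks, the 5 members with most footprints, and up to 10 with an NRF1 or YY1 match in both libraries. Of the related genes, those without a peak in both libraries, the 5 best ranked and the regulators are named. Partner genes, X-linked members and the lists of 14 or fewer members with other matches were named after their values were seen, and 1 member that the rule would name is not reported here. Alternatives covered peak list, window, start sites, shared peaks, footprint width and each library left out.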

Additional observations from a re-analysis of the deposited data

How the results depend on the processing

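The share of members with a promoter peak was 92.3%. It was 90.8% with a window of 500 bases, 95.4% with 2 kb, 93.9% with RefSeq start sites added and 83.2% with peaks nearest to the gene's own start site, and from 91.8% to 92.9% with 1 library left out. With 2 kb the share of all genes was 55.1% in replicate 1 and 58.8% in replicate 2. It was not computed over all genes for 500 bases, for added RefSeq start sites or for peaks nearest to the own start site. The share of tissue-restricted isoforms, 25%, was 56.2% with a window of 2 kb and 25% in each library. The share of related genes, 97.5%, was 95.8% with the stronger 50% of the peaks and with the most upstream start site, 89.8% with peaks nearest to the own start site, and from 96.6% to 98.3% with 1 library left out. The median rank, 8.98%, was 6.20% in the longer lists, 22.2% among promoter peaks alone, and from 7.80% to 10.2% with 1 library left out. The median width was 200 bases under each alternative tried. The mean number of footprints, 4.61, was 4.18 for footprints wholly inside the peak, 6.61 within 1 kb of a start site, and from 4.52 to 4.70 with 1 library left out. The share of members with any of the 7 consensus sequences other than TATAAA in a footprint, 82.3%, beside 82.6% and 84.4% at other peaks of like strength in replicates 1 and 2, was 71.3% without widening, 90.6% in the whole peak, and from 80% to 84.6% with 1 library left out. Of 96 recomputed values 68 moved by no more than the SD between the libraries and 28 by more, and the cause was not tested. The 68 include every value with 1 library left out, which by construction lies within that SD of the mean. Where the SD was 0, as for the isoform share and the width, any change counted as more. With 2 libraries that SD is itself poorly known. No paired analysis was possible because the libraries form 1 group.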

Other observations

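Read without widening, the NRF1 consensus was inside footprints of 28.9% and 27.5% of members in replicates 1 and 2, against 16.5% and 16.9% at other peaks of like strength, and the ETS consensus inside those of 14.4% and 14.3%, against 7.16% and 10.2%. The nearest peak to Cox8c, 20656 and 20676 bases from its start site, had signals of 7.47 and 9.69, and that to Cox8b, 2895 bases away in each library, had 1.71 and 1.12.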
